A study of Mus musculus with 12 samples.

Results

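Transcripts of 10 genes of the TNF receptor pathway were followed through LPS activation of mouse bone marrow-derived macrophages (BMDM), namely 5 receptors (Tnfrsf1a, Tnfrsf1b, Tnfrsf11a, Tnfrsf21 and Fas) and 5 TRAF adaptors (Traf1, Traf2, Traf3, Traf5 and Traf6). They were taken by symbol from a table of 43280 genes, and all 10 were among the 12091 genes with at least 1 CPM (reads on the gene relative to the total of the library) in at least 2 libraries. The BMDM came from the marrow of wild type (wt) and Treml4-/- mice, both of C57BL6 background, and were grown with M-CSF. They were left with vehicle only (M0) or given LPS at 100 ng/mL for 8 h (M1-8 h) or 12 h (M1-12 h). Each of the 6 groups had 2 libraries named as biological replicates, 12 in all, and the labels do not say whether a replicate number marks the same animal or culture across groups. Where replicates are not separate animals, the p-values measure only the spread between these libraries. The Treml4-/- mice carry the deletion in every cell, and the study's methods say that animals were matched for age and sex, without giving an age for these macrophages.

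Receptors of this family bind trimeric ligands of the TNF family and have no enzyme activity of their own. Those with a death domain, such as TNFR1 (Tnfrsf1a), Fas and DR6 (Tnfrsf21), can assemble complexes that activate caspases, while TNFR2 (Tnfrsf1b) and RANK (Tnfrsf11a) recruit TRAF proteins directly. TRAF2, TRAF3, TRAF5 and TRAF6 carry a RING domain and link receptors to ubiquitin chains, the IKK complex, MAP kinases and NF-kB, while TRAF1 lacks a RING domain. In macrophages these proteins carry signals of TNF made by the cells themselves, and TRAF6 and TRAF3 also act below Toll-like receptors such as TLR4, the receptor for LPS.

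Libraries held between 48008751 and 58500792 reads on genes, so 1 read was worth 0.0171 to 0.0208 CPM. Treml4 had 198 to 663 reads in the 6 wt libraries and 0 reads in the 6 Treml4-/- libraries, where 3 reads is the limit that a count of 0 allows, and every library therefore matched its genotype label. All 8 macrophage markers checked were present, with a summed level of 20712 to 27907 CPM at M0, 10295 to 13416 CPM at M1-8 h and 9996 to 11185 CPM at M1-12 h. The markers did not fall together, since 3 were called higher and 3 lower at 8 h, with a median log2 difference of 0.05. On CPM Fcgr1 (4.22), Mertk (3.01) and Cd14 (0.71) were higher, and Csf1r (-2.37), Lyz2 (-1.31) and Cd68 (-1.04) lower. Under median of ratios Cd68 (-0.24) was not called, and Adgre1 (0.59) and Itgam (1.11) were called higher. After quantile normalization Cd68 (-1.52) and Adgre1 (-0.72) were called lower, and Itgam (-0.03) was not called. Some listed markers of T cells (Cd3e, Cd3d, Cd3g, Trac, Cd8a), B cells (Cd79a, Ms4a1, Pax5), dendritic cells (Flt3, Zbtb46, Siglech) and neutrophils (Ly6g) were under 1 CPM in all libraries. Lck, Cd79b, Xcr1, Ccr7, S100a8, S100a9, Elane, Mpo and Ngp, of the same lists, reached 1 CPM in at least 2 libraries. Of the B cell genes, Cd79b was at 4.33 to 6.40 CPM at M0 and at 0.172 to 0.651 CPM with LPS (-2.18 at 8 h, called lower under all 3 scalings). The summed level of 6 neutrophil markers was 42 to 133.9 CPM at M0, 65.6 to 101 CPM at M1-8 h and 45.2 to 63.9 CPM at M1-12 h, with the lowest M0 value in wt replicate 2. At 8 h S100a8 was called higher (1.09), Mpo (-1.62), Elane (-1.01) and Ngp (-0.88) lower, and S100a9 (-0.43) was not called. Under median of ratios Elane (-0.37) and Ngp (-0.13) were not called either. The direction of S100a9 changed to 0.33 under median of ratios and 0.31 after quantile normalization, not called in either. The sum of 6 T cell markers went from 0.337 to 0.54 CPM at M0 to 9.78 to 31.4 CPM at M1-8 h and 2.88 to 5.88 CPM at M1-12 h. This rise was that of Lck, at 9.74 to 31.4 CPM at M1-8 h. For 5 dendritic cell markers the sum was 0.673 to 1.19 CPM at M0 and 13.8 to 27.3 CPM with LPS, and for 5 stromal cell markers it was 3.3 to 4.88 CPM and 9.87 to 17 CPM. The dendritic cell rise was that of Xcr1 (2.63 at 8 h) and Ccr7 (3.42). The stromal cell rise was that of Pecam1 (2.49 at 8 h, 2.93 at 12 h). Pdgfrb was 0.07 at 8 h on CPM, but was called higher under median of ratios (0.62) and after quantile normalization (0.77). At 12 h Pdgfrb was called lower on CPM (-0.92) and not called under the other scalings (-0.41 and -0.26). The part of these other transcripts in the results was not tested, and in bulk RNA fewer cells of a type and less RNA per cell cannot be told apart.

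The scale matters for every comparison with M0. Folds printed with a log2 difference are ratios of CPM + 1, which understate ratios of plain CPM at low levels. A gene was called when limma's adjusted p was under 0.05 and the fold change was at least 1.4, on log2(CPM + 1). On this scale the median log2 difference of all 12091 genes was -0.72 at M1-8 h and -0.75 at M1-12 h, so that 22.3% and 21.2% of the called genes were higher. When libraries were scaled by the median of ratios this share was 50.8% and 50.9%, and after quantile normalization 43.6% and 45.3%. Directions that change with the scaling are therefore given beside each gene.

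Promoter sequences of 5 of the genes are shown first because their transcripts moved most or, for the pair of TNF receptors, moved apart in time. Each is the 250 bases before the RefSeq start of the gene in GRCm38.p6, 5′ to 3′ on the strand of the gene, with capitals marking matches to 4 motifs searched on both strands, the NF-kB consensus, AP-1 (TGANTCA), GAS (TTCNNNGAA) and the ISRE core (GAAANNGAAA). Windows are chr6:125349473-125349722 (plus strand) for Tnfrsf1a, chr4:145246871-145247120 (minus strand) for Tnfrsf1b, chr19:34290409-34290658 (plus strand) for Fas, chr2:34961773-34962022 (minus strand) for Traf1 and chr17:43016305-43016554 (plus strand) for Tnfrsf21.
Tnfrsf1a: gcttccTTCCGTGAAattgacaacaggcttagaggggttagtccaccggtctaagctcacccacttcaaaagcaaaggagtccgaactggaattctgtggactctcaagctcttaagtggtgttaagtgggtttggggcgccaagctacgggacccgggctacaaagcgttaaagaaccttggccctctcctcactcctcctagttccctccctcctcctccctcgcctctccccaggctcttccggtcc
Tnfrsf1b: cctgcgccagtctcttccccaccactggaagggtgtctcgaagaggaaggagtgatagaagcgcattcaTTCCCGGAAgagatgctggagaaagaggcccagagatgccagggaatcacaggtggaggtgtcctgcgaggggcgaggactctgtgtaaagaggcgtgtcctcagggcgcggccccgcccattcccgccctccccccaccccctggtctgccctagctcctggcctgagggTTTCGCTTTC
Fas: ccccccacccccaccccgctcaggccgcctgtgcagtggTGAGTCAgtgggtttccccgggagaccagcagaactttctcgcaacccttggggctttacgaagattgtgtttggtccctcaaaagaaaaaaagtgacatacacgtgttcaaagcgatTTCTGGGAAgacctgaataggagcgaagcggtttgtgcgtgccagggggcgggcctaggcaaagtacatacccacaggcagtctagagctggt
Traf1: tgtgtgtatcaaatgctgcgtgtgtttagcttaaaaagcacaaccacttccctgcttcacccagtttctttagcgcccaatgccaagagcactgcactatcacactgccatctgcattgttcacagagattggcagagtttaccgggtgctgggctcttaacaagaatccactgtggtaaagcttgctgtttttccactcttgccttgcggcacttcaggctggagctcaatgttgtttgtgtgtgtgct
Tnfrsf21: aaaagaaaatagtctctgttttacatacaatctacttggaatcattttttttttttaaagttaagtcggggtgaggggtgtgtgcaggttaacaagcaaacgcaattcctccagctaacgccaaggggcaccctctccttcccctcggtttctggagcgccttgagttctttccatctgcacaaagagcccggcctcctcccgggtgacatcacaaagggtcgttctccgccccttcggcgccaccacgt
In these windows Tnfrsf1a had a GAS match 244 to 236 bases before the RefSeq start, Tnfrsf1b a GAS match at 181 to 173 and an ISRE core on the other strand at 10 to 1, and Fas an AP-1 match at 211 to 205 and a GAS match at 93 to 85. The whole Tnfrsf1a window lies after the GENCODE start of that gene (chr6:125349362), so its GAS match is inside the gene as GENCODE places it. Among the other 5 genes, Traf3 had the only NF-kB match, in the last 10 bases before its start. No match to the 4 motifs stood in the windows of Traf1, Traf2, Traf5, Traf6, Tnfrsf11a and Tnfrsf21. Of 32851 mouse promoters of the same length, 7.25% held the NF-kB consensus, 6.75% AP-1, 7.02% GAS and 2.98% the ISRE core. No match overlapped another motif. A match describes letters only, and its absence says nothing of the factor.

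After 8 h of LPS, 4 of the 10 genes were called higher than at M0 (Traf1, Fas, Traf2 and Tnfrsf1a), against 17.1% of all genes tested, and 3 were called lower (Tnfrsf21, Tnfrsf11a and Traf5), against 59.8%. The median difference of the 10 genes was 0.13 on the log2 scale. At M1-12 h 6 were called higher, with Tnfrsf1b and Traf6 added to those 4, against 16.3% of all genes, and Tnfrsf21 and Tnfrsf11a were called lower, against 60.3%. The median was 0.60. Between 8 and 12 h, Tnfrsf1b, Traf6 and Traf5 were called higher (13.5% of all genes) and Tnfrsf21, Fas and Tnfrsf1a lower (18.6%). With median of ratios scaling the counts against M0 were 6 higher and 1 lower at 8 h (32% and 31% of all genes tested) and 8 higher and 1 lower at 12 h (33.5% and 32.4%). With quantile normalization they were 5 and 2 at both times (27.8% and 35.9% of all genes at 8 h, 29.7% and 35.9% at 12 h). The LPS comparisons pool the genotypes, 4 libraries against 4, and both LPS times are set against the same M0 libraries.

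**Figure D1:**
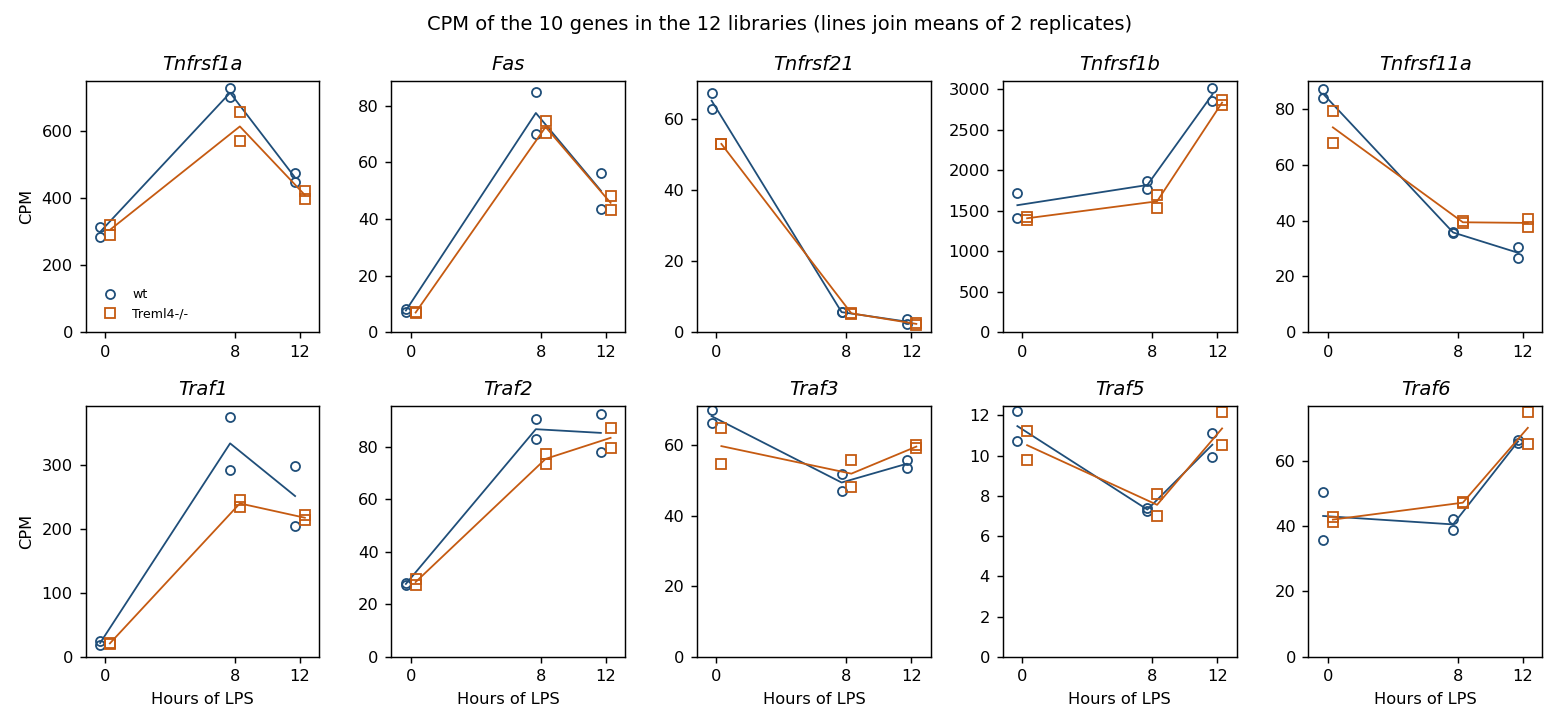
CPM (y axis, from 0) of the 10 genes against hours of LPS (x axis) in the 12 libraries, with wt as circles and Treml4-/- as squares and lines through the means of 2 replicates. Tnfrsf1a, Fas and Traf1 were highest at 8 h, Tnfrsf1b and Traf6 at 12 h, and Tnfrsf21 and Tnfrsf11a at M0.

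The death domain receptors took different courses. Tnfrsf1a (ENSMUSG00000030341.17, chr6:125349362-125362484, plus strand), which encodes TNFR1, stood at 284 and 314 CPM in wt and 321 and 289.8 CPM in Treml4-/- at M0. At M1-8 h it was at 728 and 702 CPM in wt and 658 and 571 CPM in Treml4-/-, and at M1-12 h at 449 and 474 CPM and at 396 and 423 CPM. All LPS libraries were above all M0 libraries, and all M1-8 h libraries were above all M1-12 h libraries. The difference from M0 was 1.13 ± 0.07 (SE) on the log2 scale at 8 h, 2.19-fold, with adjusted p = 1.5e-08, and 0.52 ± 0.07 at 12 h, with adjusted p = 1.5e-05. From 8 to 12 h it fell by 0.61 ± 0.07 (adjusted p = 1.9e-05). Under median of ratios the 12 h difference was 1.37, and after quantile normalization it was 0.48 and just under the fold limit, as was the fall from 8 to 12 h (-0.48).

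Fas (ENSMUSG00000024778.13, chr19:34290666-34327772, plus strand), the receptor of Fas ligand, was at 6.77 to 8.14 CPM in the 4 M0 libraries. With 8 h of LPS it was at 70.0 and 84.8 CPM in wt and at 70.4 and 74.5 CPM in Treml4-/-. By 12 h the values were 43.6 and 56.3 CPM in wt and 48.1 and 43.3 CPM in Treml4-/-, below every 8 h library and above every M0 library. These are differences of 3.19 ± 0.10 (9.15-fold, adjusted p = 5.1e-11) and 2.55 ± 0.10 (5.87-fold, adjusted p = 3.0e-10) from M0, and a fall of -0.64 ± 0.10 from 8 to 12 h (adjusted p = 1.6e-04). The rise was 3.91 at 8 h under median of ratios and 3.92 after quantile normalization.

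Tnfrsf21 (ENSMUSG00000023915.5, chr17:43016555-43089189, plus strand), which encodes DR6, had the largest fall of the 10. It was at 67.4 and 62.9 CPM in wt and 52.9 and 53.0 CPM in Treml4-/- at M0, at 5.20 to 5.72 CPM in the 4 libraries at 8 h and at 2.04 to 3.64 CPM at 12 h. The 3 time points did not overlap. It fell by 3.21 ± 0.11 on the log2 scale at 8 h, 9.24-fold lower, and by 4.05 ± 0.11 at 12 h, 16.6-fold lower, with adjusted p = 1.3e-10 and adjusted p = 2.2e-11. From 8 to 12 h it fell by a further 0.84 ± 0.11 (adjusted p = 5.2e-05). The folds are of CPM + 1, while the mean CPM was 59.04 at M0, 5.465 at 8 h and 2.647 at 12 h. The differences from M0 were -2.46 and -3.29 under median of ratios and -2.59 and -3.39 after quantile normalization.

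The receptors that bind TRAF proteins directly also parted. Tnfrsf1b (ENSMUSG00000028599.10, chr4:145213463-145246870, minus strand), which encodes TNFR2, was at 1413 and 1725 CPM in wt and 1429 and 1386 CPM in Treml4-/- at M0, and at 1764 and 1872 CPM and 1696 and 1538 CPM at M1-8 h. At M1-12 h it was at 2851 and 3021 CPM in wt and 2803 and 2870 CPM in Treml4-/-, above all other libraries, while the M0 and 8 h libraries overlapped. The difference at 8 h was 0.21 ± 0.07 (adjusted p = 0.0194) and under the fold limit, and it was 1.01 and called under median of ratios but -0.25 after quantile normalization. At 12 h it was 0.96 ± 0.07 (1.95-fold, adjusted p = 1.4e-07), 1.81 under median of ratios and 0.40, not called, after quantile normalization. From 8 to 12 h it was called higher under all 3 scalings, by 0.75 ± 0.07 on CPM (adjusted p = 7.5e-06), 0.80 and 0.64.

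Tnfrsf11a (ENSMUSG00000026321.7, chr1:105780718-105847981, plus strand), which encodes RANK, the receptor through which RANK ligand drives osteoclast formation, was at 84.1 and 87.2 CPM in wt and 67.8 and 79.3 CPM in Treml4-/- at M0. It was at 35.9 and 35.8 CPM in wt and 39.1 and 39.9 CPM in Treml4-/- at 8 h, and at 30.5 and 26.5 CPM and 40.7 and 37.8 CPM at 12 h. All LPS libraries lay below all M0 libraries, and wt lay below Treml4-/- at both LPS times and above it at M0. Pooled over genotypes it fell by 1.06 ± 0.07 at 8 h (adjusted p = 4.5e-08) and by 1.22 ± 0.07 at 12 h (adjusted p = 1.2e-08). The fall was smaller and not called under median of ratios (-0.27 and -0.39), and was called after quantile normalization (-0.67 and -0.77). The summed level of 6 osteoclast markers was 154.6 to 201.5 CPM at M0, 85.2 to 134.4 CPM at 8 h and 127.1 to 133 CPM at 12 h. Calcr and Oscar were under 1 CPM in all libraries. The other markers did not fall together. On CPM at 8 h Ctsk (-1.59) was called lower and Ocstamp (0.70) higher, while Acp5 (0.09) and Dcstamp (-0.03) were not called. Under median of ratios Acp5 (0.87) and Dcstamp (0.71) were called higher too. At 12 h on CPM Ocstamp was again called higher, and Ctsk and Dcstamp lower. The part of these markers in the fall of Tnfrsf11a was not tested.

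Among the adaptors, Traf1 and Traf2 rose and the others moved less. Traf1 (ENSMUSG00000026875.14, chr2:34941750-34961772, minus strand), which pairs with TRAF2 and lacks the RING domain, was at 17.8 and 25.3 CPM in wt and 21.5 and 20.2 CPM in Treml4-/- at M0. It reached 292 and 374 CPM in wt and 244.8 and 233.8 CPM in Treml4-/- at 8 h, and was at 204 and 297.6 CPM and 213 and 221 CPM at 12 h. This was the largest rise of the 10 genes, 3.68 ± 0.13 at 8 h (12.8-fold, adjusted p = 2.3e-10) and 3.40 ± 0.13 at 12 h (10.5-fold, adjusted p = 4.2e-10). The change from 8 to 12 h was -0.28 ± 0.13 and did not pass (adjusted p = 0.0892). The rise at 8 h was 4.45 under median of ratios and 4.17 after quantile normalization.

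Traf2 (ENSMUSG00000026942.13, chr2:25517982-25546940, minus strand), the ubiquitin ligase that TNFR1 and TNFR2 share, was at 27.3 to 29.7 CPM at M0, at 73.5 to 90.4 CPM at 8 h and at 78.2 to 92.4 CPM at 12 h. Every LPS library was above every M0 library, while the 8 and 12 h libraries overlapped. The differences from M0 were 1.49 ± 0.07 (2.81-fold, adjusted p = 2.2e-09) and 1.55 ± 0.07 (2.93-fold, adjusted p = 1.5e-09), and the 12 h libraries differed from those of 8 h by 0.06 with a 95% interval of -0.10 to 0.22 (adjusted p = 0.508).

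Traf6 (ENSMUSG00000027164.8, chr2:101678429-101701669, plus strand), the adaptor shared by Toll-like receptors, the IL-1 receptor and RANK, was at 50.6 and 35.7 CPM in wt and 41.3 and 42.8 CPM in Treml4-/- at M0, with the lowest value in wt replicate 2. At 8 h it was at 42.1 and 38.9 CPM in wt and 47.3 and 47.1 CPM in Treml4-/-, which overlapped M0, and at 12 h at 65.3 to 74.9 CPM in the 4 libraries, above all others. The 8 h difference was 0.05 ± 0.10 (adjusted p = 0.644), but -0.07 without wt M0 replicate 2, and it was called higher under median of ratios (0.83) and after quantile normalization (0.58). At 12 h Traf6 was higher than M0 by 0.67 ± 0.10 (adjusted p = 4.0e-05) and than 8 h by 0.62 ± 0.10 (adjusted p = 2.2e-04), and both were called under the other scalings too.

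Traf3 (ENSMUSG00000021277.16, chr12:111166370-111267153, plus strand), which restrains the alternative NF-kB pathway and serves type I interferon induction, was at 54.5 to 70.0 CPM at M0, 46.9 to 55.6 CPM at 8 h and 53.5 to 59.9 CPM at 12 h. Its ranges overlapped between neighbouring times. The 8 h difference of -0.33 ± 0.08 was under the fold limit (adjusted p = 0.00143) and turned to 0.46 under median of ratios and 0.08 after quantile normalization. At 12 h the difference was -0.16 ± 0.08 (adjusted p = 0.0692), and 0.68, called, and 0.32, not called, under these scalings. The direction of Traf3 with LPS thus depends on the scaling.

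Traf5 (ENSMUSG00000026637.13, chr1:191997205-192092559, minus strand), a relative of TRAF2, had the lowest mean level per kb of the 5 adaptors with LPS. It was at 9.80 to 12.2 CPM at M0, 7.00 to 8.11 CPM at 8 h and 9.94 to 12.2 CPM at 12 h. All 8 h libraries lay below all others. The 8 h difference of -0.51 ± 0.09 was called (adjusted p = 2.3e-04) on CPM only, and became 0.21 under median of ratios and 0.46 after quantile normalization. It was -0.46 and under the fold limit when wt M0 replicate 2, Treml4-/- M0 replicate 2 or Treml4-/- M1-8 h replicate 1 was left out. The 12 h difference was -0.01 ± 0.09 (adjusted p = 0.958) on CPM and 0.77 and 0.99, both called, under the other scalings. From 8 to 12 h Traf5 was higher by 0.50 ± 0.09 (adjusted p = 6.3e-04) on CPM and called under all 3 scalings, but between 0.45 and 0.46 and under the fold limit without Treml4-/- M1-8 h replicate 1, wt M1-12 h replicate 2 or Treml4-/- M1-12 h replicate 1. Its span holds Gm26879 on the other strand and Mir3473c on the same strand, each under 0.03 CPM in all libraries.

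**Figure D2:**
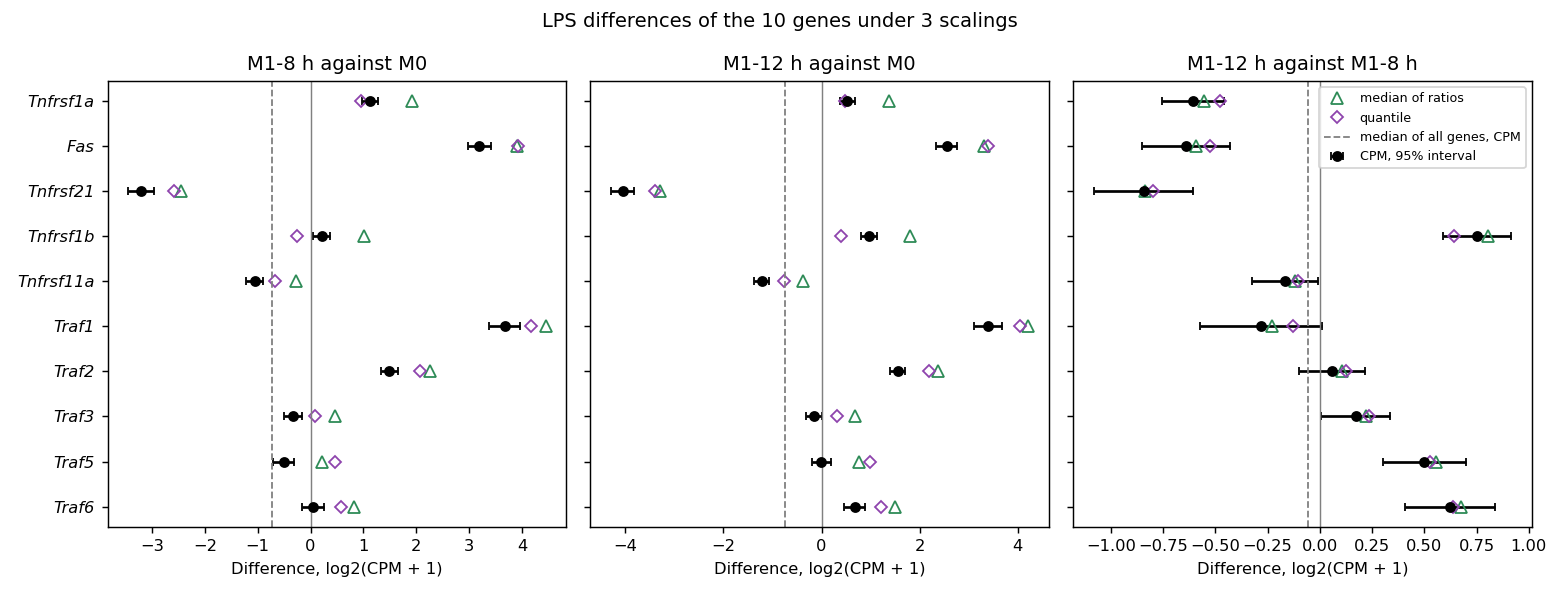
Differences on log2(CPM + 1) (x axis) of the 10 genes (y axis) in the comparisons of both LPS times with M0 and of 12 with 8 h of LPS, with black points and 95% intervals on CPM, triangles for median of ratios, diamonds for quantile normalization and a dashed line at the median of all genes. Traf3 and Traf5 lie on the other side of 0 under both other scalings in the comparisons with M0, Tnfrsf1b lies below 0 at 8 h after quantile normalization only, and in the comparison of 12 with 8 h all 3 scalings give every gene the same direction.

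Ratios between 2 genes of the same library do not depend on a scaling factor of the library, so total and median of ratios scaling give the same ratio. These pairs were chosen after the values were seen. Per kb of exon, the Tnfrsf1b to Tnfrsf1a ratio of CPM was 3.02 to 3.72 in the 4 M0 libraries, 1.64 to 1.83 at 8 h and 4.31 to 4.80 at 12 h, with no overlap between any 2 times. It was 0.527-fold of M0 at 8 h, 1.35-fold of M0 at 12 h and 2.57-fold of 8 h at 12 h, on geometric means. The Traf1 to Traf2 ratio was 0.377 to 0.52 at M0, 1.83 to 2.39 at 8 h and 1.47 to 1.86 at 12 h, 4.64-fold and 3.67-fold of M0. The 8 and 12 h libraries overlapped for this ratio. Since the pairs were picked for this pattern, the ratios are given without a test.

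**Figure D3:**
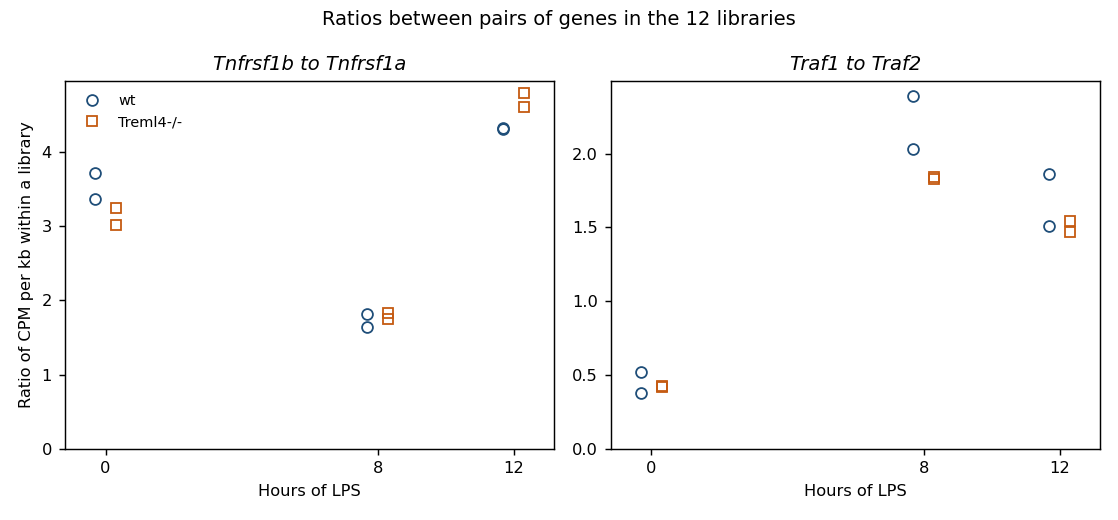
Ratio of CPM per kb (y axis, from 0) of Tnfrsf1b to Tnfrsf1a and of Traf1 to Traf2 within each of the 12 libraries against hours of LPS (x axis), with wt as circles and Treml4-/- as squares. The TNFR2 to TNFR1 transcript ratio was lowest at 8 h (1.64 to 1.83) and highest at 12 h (4.31 to 4.80), and the Traf1 to Traf2 ratio was below 1 at M0 and above 1 with LPS.

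Levels between genes can be compared only per length. At M0 the mean level was 389.7 CPM per kb for Tnfrsf1b and 116.7 for Tnfrsf1a, followed by Tnfrsf21 at 14.4 and Tnfrsf11a at 13.3, whose ranges overlapped. Then came Traf3 at 8.69, Traf2 at 5.51 and Traf6 at 5.40, which overlapped, Fas at 3.53, and Traf1 and Traf5, both at 2.41 and overlapping. At M1-8 h Tnfrsf1b (449.8) and Tnfrsf1a (256.6) stayed at the top, Fas (36.3) and Traf1 (32.5) overlapped in the next places, and Tnfrsf21 was last at 1.33. At M1-12 h Tnfrsf1b stood at 756 and Tnfrsf1a at 168 CPM per kb, Traf1 (26.5) and Fas (23.2) overlapped, and Tnfrsf21 was again last at 0.644. Fas thus went from the eighth place at M0 to the third at 8 h, and Tnfrsf21 from the third to the tenth.

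Of the ligands, Tnf was at 34.7 to 49.1 CPM at M0, 568.5 to 659.4 CPM at 8 h and 146 to 196 CPM at 12 h, a difference from M0 of 3.89 ± 0.10 (adjusted p = 1.3e-11) and 2.12 ± 0.10 (adjusted p = 1.6e-09). Lta, lymphotoxin alpha, had at most 3 reads at M0, 120 to 139 reads at 8 h and 87 to 98 reads at 12 h. Fasl had 1 read in 1 library and 0 in the other 11, and Tnfsf11, which encodes RANK ligand, had 0 reads in all 12. In the libraries with 0 reads any transcript was below the limit of 3 reads per library. Their receptors Fas and Tnfrsf11a were measured in every library.

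The rest of the pathway was described with 5 lists. Beside their counts, 17.1% of all genes tested were called higher and 59.8% lower at 8 h (32% and 31% under median of ratios). At 12 h these shares were 16.3% and 60.3% (33.5% and 32.4%). Of 23 other TNF receptors 12 were tested, and at 8 h 3 were called higher and 5 lower (6 and 4 under median of ratios), with a median of -0.17. On CPM these were 25% and 41.7% of the list. Cd40, the receptor of CD40 ligand, was at 3.33 to 5.73 CPM at M0, 1833 to 2546 CPM at 8 h and 704 to 953 CPM at 12 h, and rose by 8.63 ± 0.09 and 7.16 ± 0.09 (adjusted p = 2.5e-14 and adjusted p = 8.8e-14). Tnfrsf8 (CD30, 1.30 at 8 h) and Tnfrsf14 (HVEM, 1.03) also rose. Tnfrsf23, Tnfrsf22, Tnfrsf13b and Relt were lower at 8 h, by -1.69, -1.56, -1.38 and -1.32, although Relt was -0.48 and not called after quantile normalization. The decoy receptors Tnfrsf22 and Tnfrsf23 are neighbours of closely similar sequence, whose reads may be split uncertainly. Tnfrsf23 was not lower at 12 h, when it stood at 45.3 and 25.4 CPM in wt and 45.9 and 45.4 CPM in Treml4-/- against 25.9 to 32.0 CPM at M0, a difference of 0.44 that was not called on CPM but was called under median of ratios (1.26) and after quantile normalization (1.15). At 12 h, 5 of the 12 were called higher and 3 lower (6 and 1 under median of ratios).

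Of 10 other TRAF family and TRAF-binding proteins 9 were tested, and 3 were called higher and 5 lower at 8 h (4 and 2 under median of ratios), with a median of -0.60. On CPM these were 33.3% and 55.6% of the list, against 17.1% and 59.8% of all genes. Tank, a TRAF-binding scaffold for TBK1, was at 21.0 to 22.9 CPM at M0 and 131 to 231 CPM at 8 h (2.83 ± 0.13, adjusted p = 1.9e-09). Trafd1 (1.69) and Tifa (1.39), a TRAF6-binding adaptor, also rose. Traip, a ubiquitin ligase of DNA repair, was lower by -3.00, Traf3ip3 by -2.23 and Traf7 by -1.10, although Traf7 was -0.31 and not called under median of ratios. Traf3ip2 was lower by -0.68, but was 0.06 under median of ratios and 0.24 after quantile normalization. At 12 h 3 were called higher and 4 lower (4 and 2 under median of ratios).

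All 13 genes of the receptor complex and death signalling list were tested, with 9 called higher and 2 lower at 8 h (11 and 1 under median of ratios) and a median of 0.75, beside -0.72 for all genes. On CPM these were 69.2% and 15.4% of the list, against 17.1% and 59.8% of all genes. Cflar, the caspase-8 inhibitor c-FLIP, was at 67.0 to 91.6 CPM at M0 and 856 to 1208 CPM at 8 h (3.70 ± 0.09, adjusted p = 1.5e-11). Mlkl, the effector of necroptosis, rose by 2.91 and the initiator caspase Casp8 by 1.52. The death domain adaptors were lower, Fadd by -1.68 (-0.96 under median of ratios, -0.74 after quantile normalization) and Tradd by -0.72 (0.05 and -0.03). At 12 h 8 were called higher and 2 lower (11 and 0 under median of ratios).

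Of 18 genes of the ubiquitin and kinase relay 17 were tested, with 4 called higher and 6 lower at 8 h (10 and 3 under median of ratios) and a median of -0.07. On CPM the share called higher (23.5%) was near that of all genes (17.1%), and 35.3% were lower, against 59.8%. Rnf31, which encodes the LUBAC ligase HOIP, was at 41.8 to 47.0 CPM at M0 and 182 to 195 CPM at 8 h (2.04 ± 0.06, adjusted p = 4.9e-11), and the kinase Map2k4 (1.91), the TAK1 partner Tab2 (0.71) and the E2 enzyme Ube2n (0.57) rose as well. Map3k5 (ASK1) was lower by -2.40, Tab1 by -1.99, Map3k14 (NIK) by -1.28 and Map2k7 by -0.97, all still negative under the other scalings, where Map2k7 was -0.19 under median of ratios. At 12 h 2 were called higher and 6 lower (8 and 3 under median of ratios).

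Of 11 genes that brake TNF receptor signalling, all tested, 6 were called higher and 3 lower at 8 h (8 and 1 under median of ratios), with a median of 0.71. On CPM these were 54.5% and 27.3% of the list, against 17.1% and 59.8% of all genes. Tnfaip3, which encodes the deubiquitinase A20, was at 39.8 to 46.8 CPM at M0, 867 to 940 CPM at 8 h and 385 to 492 CPM at 12 h (4.30 ± 0.08 and 3.19 ± 0.08, adjusted p = 8.8e-13 and adjusted p = 9.4e-12). Its partner Tnip3 rose by 3.31 at 8 h, Nfkbia, the inhibitor of NF-kB, by 2.09 and the RNase Zc3h12a by 1.10. Otulin, which removes linear ubiquitin, was lower by -2.43 (-1.65 under median of ratios), while Usp21 (-0.81) and Otud7b (-0.69) were within 0.08 of 0 under the other scalings. At 12 h 6 were called higher and 2 lower (9 and 1 under median of ratios).

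**Figure D4:**
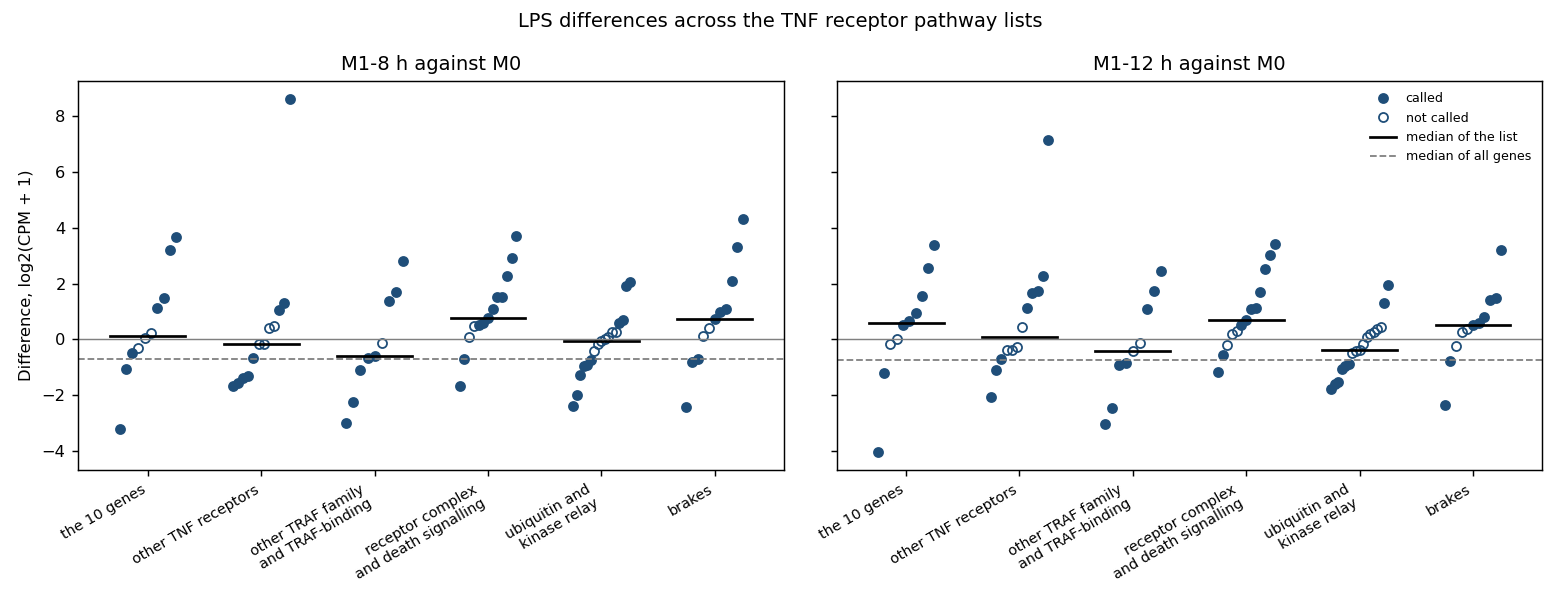
Differences on log2(CPM + 1) (y axis) of the tested genes of 6 lists (x axis) for M1-8 h and M1-12 h against M0, with filled points for called genes, open points for the rest, a black bar at the median of the list and a dashed line at the median of all genes (-0.72 and -0.75). Cd40 is the highest point in both panels, and on this scale the medians of all 6 lists lie above the dashed line.

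Genotype was compared at each time with 2 libraries against 2, and the question was whether loss of Treml4 shifted the receptors or adaptors. None of the 10 genes was called in limma at M0 (0.0992% of all genes were), at M1-8 h (0.091%), at M1-12 h (0.132%) or for the mean over the 3 times (0.414%), nor by voom on the recovered reads. At an unadjusted p under 0.05 there were 0 at M0 (3.36% of all genes), 2 at 8 h (21%), 1 at 12 h (7.54%) and 2 for the mean (20.1%).

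At M1-8 h the 2 genes were Traf1, higher in wt by 0.46 ± 0.19 (95% interval 0.05 to 0.88, adjusted p = 0.209), and Tnfrsf1a, higher in wt by 0.22 ± 0.10 (0.01 to 0.43, adjusted p = 0.222). For both, the wt libraries lay above the Treml4-/- libraries at 8 h. At 12 h the gene was Tnfrsf11a, lower in wt by -0.45 ± 0.10 (-0.67 to -0.23, adjusted p = 0.165). Over the 3 times it was Tnfrsf21 (0.20 ± 0.09, adjusted p = 0.237) and Tnfrsf1a (0.12 ± 0.06, adjusted p = 0.248). Intervals of the other comparisons all included 0, the widest at M0 being that of Traf1 (-0.39 to 0.44), and for Fas at 8 h the interval was -0.21 to 0.39 and for Tnfrsf1b at 12 h -0.18 to 0.28.

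The libraries of the genotypes did not overlap for 4 of the 10 genes at M0 (28.8% of all genes), where Tnfrsf11a, Tnfrsf21, Fas and Traf3 were higher in wt. At 8 h this held for 7 (51.9%), with Tnfrsf1a, Tnfrsf1b, Tnfrsf21, Traf1 and Traf2 higher and Tnfrsf11a and Traf6 lower in wt, and at 12 h for 3 (43%), with Tnfrsf1a higher and Tnfrsf11a and Traf3 lower in wt. The direction without overlap was opposite at M0 and 8 h for Tnfrsf11a (3.95% of all genes), at M0 and 12 h for Tnfrsf11a and Traf3 (4.29%), and at M0 and both LPS times for Tnfrsf11a (1.5%).

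**Figure D5:**
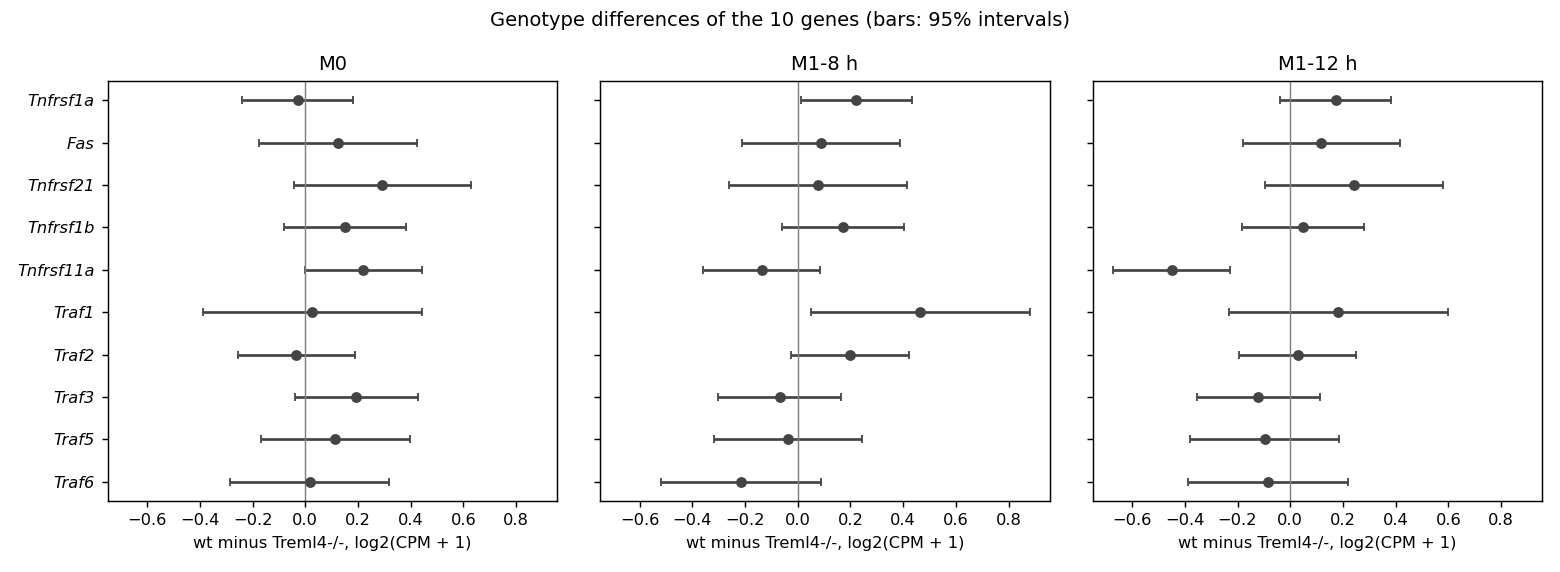
Difference of wt minus Treml4-/- on log2(CPM + 1) (x axis) for the 10 genes (y axis) at each of the 3 times, with points at the estimate and bars for 95% intervals before adjustment, 2 libraries against 2. The interval of Tnfrsf11a at 12 h (-0.67 to -0.23) lies farthest from 0, and no gene passed after adjustment over all genes.

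The LPS response was also taken within each genotype, 2 libraries against 2. At 8 h 4 were called higher in each genotype (16.3% of all genes in wt, 17.7% in Treml4-/-), and 3 lower in wt (60.5%) and 2 in Treml4-/- (58.1%), where Traf5 was at -0.43 ± 0.13. At 12 h 6 were called higher in wt (16.2%) and 5 in Treml4-/- (16.1%), where Tnfrsf1a was at 0.42 ± 0.10 against 0.62 ± 0.10 in wt, and 2 were lower in each (60.4% and 59.6%). Traf1 rose by 3.90 ± 0.19 in wt and 3.46 ± 0.19 in Treml4-/- at 8 h, and Tnfrsf21 fell by 3.32 ± 0.15 and by 3.10 ± 0.15. The test of the difference between these responses called none of the 10 genes at 8 or 12 h (0.00827% of all genes at each, 0 members by voom). At an unadjusted p under 0.05 it had 1 gene at each time (6.67% and 3.83% of all genes), Tnfrsf11a, whose response was -1.23 ± 0.10 in wt and -0.88 ± 0.10 in Treml4-/- at 8 h and -1.56 ± 0.10 and -0.89 ± 0.10 at 12 h. The difference of responses was -0.36 ± 0.14 (adjusted p = 0.73) and -0.67 ± 0.14 (adjusted p = 0.999).

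Genes with the most similar course across the 12 libraries, by Pearson's r on log2(CPM + 1), were listed as a description. The libraries differ in genotype and LPS time between groups, and r includes these group differences. Tnfrsf1a was most like Irf8 (r = 0.992) and Ube2z (0.991), Tnfrsf1b like Zdhhc18 (0.987) and Ctsh (0.982), and Tnfrsf11a like Kcnk6 (0.985) and Ccdc93 (0.984). Traf1 was most like Slc2a6 and Il1b (both 0.998), Traf2 like Pou3f1 (0.998) and Dnase1l3 (0.997), Fas like Gpd2 and Dusp16 (both 0.998), and Tnfrsf21 like Ctdsp2 and Galc (both 0.998). Of all genes tested, 3236 had r above 0.95 with Tnfrsf21, 749 with Fas and 724 with Traf1. The counts were 1124 for Tnfrsf11a, 727 for Traf2, 166 for Tnfrsf1a, 41 for Tnfrsf1b, 17 for Traf6 (Ccdc126 and Gm11613, both 0.977), 1 for Traf5 (Gm9796, 0.951, then Mpv17l, 0.946) and 0 for Traf3 (Tet3, 0.934, and Zfp932, 0.923).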

How the data were processed

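Total RNA of BMDM was made into stranded, poly(A)-selected libraries and sequenced as paired reads of 126 bases. The authors aligned reads with STAR to mm10 (per the labels' processing notes), counted them per gene with Subread, and deposited log2 CPM with a prior of 0.25 reads. Whether counting used strand is not given in the sources used here. Groups and replicate numbers came from the labels. The fixed design had assumed CPM, so the deposited log2 values were turned back into CPM, and whole reads were recovered for 100% of values (tolerance 0.05 reads). For testing, 1 CPM was added before taking log2, and limma 3.58.1 (R 4.3.3) was fitted with 6 group means over 12 libraries, a trend in the prior variance, genes of at least 1 CPM in at least 2 libraries and Benjamini-Hochberg adjustment. The script was tested on simulated data. Floors and intervals of counts cover counting error only. Alternatives were the pseudocount, filter, scaling, trend, fold limit, libraries in the fit, voom, the deposited log2 scale, replicate blocks and leaving out each library. All 10 members are named, with up to 4 genes per list and direction having the largest called difference at 8 h (1 such gene and 1 marker are not reported here), 4 ligands, and the 2 genes most similar to each member. Members and lists were chosen with earlier results of these data known. Coordinates are from GENCODE M21 (GRCm38, the build of mm10), and promoters from RefSeq (10 of 10 matched). Ratios of CPM per kb used the union of exons. Adgre1 is listed as Emr1. Other experiments of the study were not analysed here. Figures were drawn with Python 3.11.15 and matplotlib 3.10.9.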

Additional observations from a re-analysis of the deposited data

Results flagged for a closer look

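For Tnfrsf11a, both wt libraries lay above both Treml4-/- libraries at M0 and below them at M1-8 h and at M1-12 h, so that the genotype difference pointed in opposite directions. The difference of the LPS responses, wt minus Treml4-/-, was -0.36 at 8 h (adjusted p = 0.73) and -0.67 at 12 h (adjusted p = 0.999) in limma, and neither passed. Among all 12091 genes, 3.95% had opposite directions without overlap at M0 and 8 h, and 4.29% at M0 and 12 h. Traf3 showed the same at M0 and M1-12 h, with a difference of responses of -0.31 (adjusted p = 0.999), which did not pass either.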

How the results depend on the processing

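The 6 counts of members for genotype and for the difference of responses, and the count for LPS at 8 h in the higher direction, came within 1.5 times the reported value under every alternative run, the genotype counts being 0 throughout. Median of ratios scaling left 1 member lower at 8 h and 1 at 12 h (Tnfrsf21), against 3 and 2. With a minimum of 2-fold, 3 members were higher at 12 h against 6, and 0 were higher and 0 lower between 8 and 12 h against 3 each. Against M0, directions reversed for Traf3 under median of ratios (0.46 at 8 h, 0.68 at 12 h) and quantile normalization (0.081 and 0.32), for Traf5 likewise (0.21 and 0.77, 0.46 and 0.99), and for Tnfrsf1b at 8 h after quantile normalization (-0.25). These alternatives rescale the libraries, whose median of ratios factors relative to the total were 1.38 to 1.52 at M0 and 0.776 to 0.888 with LPS. Leaving out 1 library at a time gave -0.054 to 0.044 for Traf5 at 12 h against M0, -0.074 to 0.17 for Traf6 at 8 h against M0 and -0.0017 to 0.12 for Traf2 between 8 and 12 h, none of them called. Members called lower at 8 h were 2 to 3 and higher between 8 and 12 h 2 to 3 when 1 library was left out, because of Traf5. Replicate numbers are not said to pair samples, and deviations of same-numbered libraries correlated at -0.26, 0.30 and 0.06 between genotypes at M0, 8 h and 12 h. Between times they correlated at 0.12 (M0 with 8 h), 0.06 (M0 with 12 h) and 0.41 (8 with 12 h) in wt, and at 0.46, -0.20 and -0.27 in Treml4-/-. With the replicate number as a block, 4 members were higher and 3 lower at 8 h, 6 and 2 at 12 h, and 0 were called for genotype, the same counts as without the replicate block, and a block for genotype and replicate together gave the same LPS counts. Depth limits Fasl, Tnfsf11 and Lta at M0. With 2 libraries per group and genotype, differences within the intervals given could not be resolved.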

Other observations

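Further genes of the lists that differed between 8 and 12 h were picked after their values were seen. Tnfrsf9 (4-1BB) was at 0.890 to 1.35 CPM at M0, 1.55 to 2.36 CPM at 8 h and 8.15 to 10.5 CPM at 12 h, and was higher at 12 than at 8 h by 1.80 ± 0.11 on the log2 scale (adjusted p = 2.5e-07). Tnfrsf26, a neighbour of Tnfrsf22 and Tnfrsf23 with similar sequence, was at 21.1 to 27.5 CPM at M0, 12.7 to 19.2 CPM at 8 h and 58.5 to 94.4 CPM at 12 h, a difference of 2.33 ± 0.11 between the LPS times (adjusted p = 5.5e-08), and Tnfrsf23 differed by 2.13 ± 0.14 (adjusted p = 5.0e-07). Birc3, which encodes the TRAF2 partner cIAP2, was at 87.1 to 107.7 CPM at M0, 263 to 298 CPM at 8 h and 147 to 180.0 CPM at 12 h, and fell by 0.82 ± 0.08 from 8 to 12 h (adjusted p = 7.8e-06).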
